A study of Mus musculus with 36 samples.

Results

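This report compares open chromatin in the livers of B6C3F1 and C57BL/6 mice that both received phenobarbital (PB). The members were the 10 DNase-seq columns of PB-treated mice in the deposited table of normalized counts, 5 of each strain, out of 36 samples in the series. The 8 DNase-seq columns of vehicle-treated mice, 4 of each strain, served as the second comparison, and no mouse was in both. Only DNase hypersensitive sites (DHSs) on autosomes were counted, which were 96287 of the 98170 DHSs in the table.

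The mice were male and drank PB (0.05% wt/vol) or vehicle for 91 days, after which their livers were profiled by DNase-seq and RNA-seq. The C57BL/6 mice came from Taconic at an age of 9 to 11 weeks, and the B6C3F1 mice came from Charles River at 4 to 5 weeks. The 2 strains were treated in separate studies, so a strain difference cannot be told apart from a difference of age, supplier or study. All values are from whole liver, where fewer cells of a type and less open chromatin or RNA per cell cannot be told apart.

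DNase I cuts preferentially where nucleosomes have been displaced, so a DHS marks a promoter, enhancer or other regulatory element that is accessible to proteins. B6C3F1 mice are the first-generation hybrids of a C57BL/6 mother and a C3H father, and carry 1 C57BL/6 copy of every autosome. PB activates the nuclear receptor CAR in hepatocytes, which induces drug-metabolizing enzymes of the Cyp2b and Cyp2c families, and long exposure promotes liver tumors in sensitive strains.

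Under PB, 9447 of the 96287 autosomal DHSs (9.81%) differed between the strains by limma, at a log2 fold change (FC) of at least 0.58 in size and an FDR of at most 0.01. Of these, 3452 (3.59%) were higher and 5995 (6.23%) were lower in B6C3F1, and every log2 FC below is B6C3F1 minus C57BL/6. Under vehicle limma called 10195 DHSs (10.6%), 5983 (6.21%) higher and 4212 (4.37%) lower. Without C57BL/6 vehicle mouse 1 or mouse 2 the vehicle count was 5092 or 4955. Lower DHSs outnumbered higher ones under PB in every setting tried. Each setting began from the same deposited counts, with reads of both strains aligned to the C57BL/6 genome. The paper reports that few read pairs differed when B6C3F1 reads were aligned to a genome with C3H variants put in. The part of the alignment in the balance of lower and higher DHSs was not tested. Under vehicle the balance moved with the scaling, with 4929 higher and 5049 lower when each mouse was centred on its median, and 3014 and 2870 with thinned reads. The median log2 FC over all autosomal DHSs was -0.02 under PB and -0.04 under vehicle. The 5 values of 1 strain lay wholly above or below the 5 of the other at 14992 DHSs (15.6%) under PB, and at 7881 (83.4%) of the 9447 called. The median depth was 17.6 M reads in DHSs for B6C3F1 under PB and 25.1 M for C57BL/6. With the reads of every mouse thinned to the shallowest of the 18 mice, limma called 5731 DHSs under PB, 1938 higher and 3793 lower.

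Limma called 4863 DHSs in both comparisons, which was 51.5% of those called under PB and 47.7% of those called under vehicle. Of the shared DHSs 2274 were higher and 2589 lower in B6C3F1 in both, and 0 were called in opposite directions. The shared part of the PB list was 33.4% and 33.0% without C57BL/6 vehicle mouse 1 or mouse 2, and 47.0% with thinned reads. Other settings raised it, to 58.4% with edgeR, 58.2% with DESeq2 and 58.0% with quantile normalization. Without B6C3F1 vehicle mouse 3 it was 59.9%. The log2 FCs of the 2 comparisons, which share no mice, correlated with Pearson r 0.798 and Spearman rho 0.763 over 96287 DHSs. Over the 81508 DHSs called in neither comparison Pearson r was 0.635. The sign was the same in both comparisons at 79.8% of all autosomal DHSs and at 99.1% of those called under PB.

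**Figure D1:**
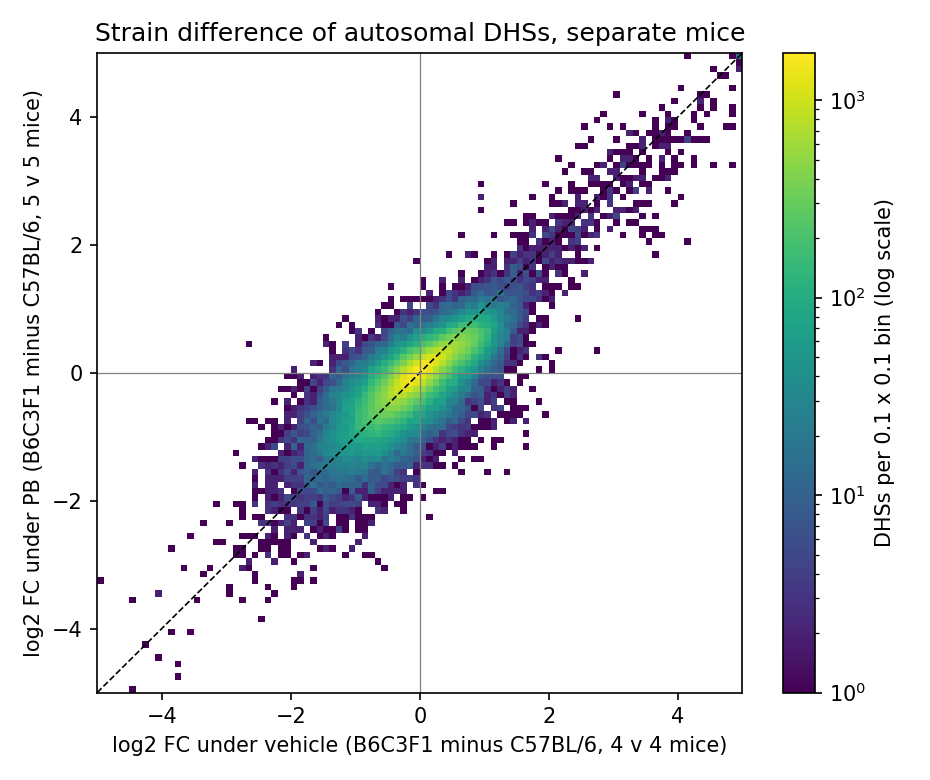
Strain log2 FC (B6C3F1 minus C57BL/6) of 96287 autosomal DHSs under vehicle (4 against 4 mice) and under PB (5 against 5 mice). Color gives the number of DHSs per bin on a log scale. Values beyond 5 in size are drawn in the outermost bin, and the dashed line marks equal values.

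Of the 3452 DHSs higher under PB, 65.9% were also called under vehicle, against 43.2% of the 5995 lower. The median log2 FC of the higher DHSs was 0.84 under PB and 0.86 under vehicle, with a median ratio of the vehicle to the PB value of 0.996. The median of the lower DHSs was -1.02 under PB and -0.83 under vehicle, with a median ratio of 0.816, and 70.7% of them had the larger difference under PB. At an unadjusted p under 0.05 in the vehicle fit, with the same sign, the shares were 90.4% of the higher and 81.3% of the lower DHSs, against 38.1% of all autosomal DHSs. Lists drawn from the vehicle calls gave the reverse order: 38.0% of the higher and 61.5% of the lower DHSs were also called under PB. Their median log2 FCs were 0.60 under PB and 0.91 under vehicle for the higher, and -0.83 and -1.0 for the lower. DHSs called lower in both had medians of -1.05 under PB and -1.09 under vehicle. Each list was chosen by its values in 1 treatment, so these medians do not test a difference between treatments. These shares by direction are from the deposited scaling alone, and the balance of higher and lower vehicle calls moved with the scaling. The parts of the scaling and of the depth of the libraries in these shares were not tested.

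The share also called under vehicle grew with the size of the difference. For DHSs higher in B6C3F1 it was 56.0% at a log2 FC of 0.58 to 0.75, 67.2% at 1 to 1.5, 95.0% (191 of 201) at 2 to 3, and 98.8% (159 of 161) at 3 or more. For DHSs lower in B6C3F1 it was 36.6%, 43.1%, 61.2% (150 of 245) and 88.6% (31 of 35) over the same ranges. With the deposited scaling, the share was lower on the lower side in each of these ranges. Other scalings were not tried for these shares.

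Limma called 4584 DHSs under PB but not under vehicle, 1178 higher and 3406 lower in B6C3F1. Of these, 68.3% had an unadjusted p under 0.05 with the same sign under vehicle, against 38.1% of all autosomal DHSs, and 89 had the opposite sign. Their median log2 FC was 0.78 under PB and 0.55 under vehicle for the higher DHSs, and -0.99 and -0.62 for the lower. Another 5332 DHSs were called only under vehicle, 3709 higher and 1623 lower. Limma found 0 autosomal DHSs whose strain difference itself differed between PB and vehicle, with a lowest FDR of 0.199 and 5215 DHSs (5.42%) at an unadjusted p under 0.05. That interaction uses all 18 mice, those of the PB comparison among them. Being called in 1 treatment only was therefore not shown to be a difference between treatments for any of these DHSs.

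The strongest differences were DHSs near absent in C57BL/6. A DHS was listed if some of the mice, of either strain, had a peak there. A DHS with almost no reads in 1 strain was thus listed through the other strain alone, and its FDR adds no support. The DHS with the largest fitted log2 FC, chr10:11492027-11492268 (148702 bp downstream of the nearest transcription start site (TSS), that of Epm2a), had normalized counts of 4048, 3279, 3839.5, 2887 and 4177 in B6C3F1 mice 1 to 5. The same DHS had 1.06, 2.98, 1.15, 15.7 and 6.48 in C57BL/6 mice 1 to 5. All 5 B6C3F1 values were far above all 5 C57BL/6 values, with a log2 FC of 9.60 (SE 0.57, FDR 1.0e-05 by limma) under PB and 9.12 under vehicle. With so few reads in C57BL/6 the pseudocount sets this size, which was 7.95 to 10.06 over the settings tried. Epm2a, which encodes the glycogen phosphatase laforin, had RNA of 3.63 CPM (counts scaled to the size of the library) in B6C3F1 and 3.37 in C57BL/6 under PB, a log2 FC of 0.09 (FDR 0.717).

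A DHS in an intron of Trpm3, an ion channel gene, at chr19:22852010-22852170, had counts of 777, 574, 699, 527 and 809 in B6C3F1. In C57BL/6 it had 10.6, 4.18, 2.87, 2.95 and 1.30. The groups stood far apart, with a log2 FC of 7.18 (SE 0.32, FDR 3.6e-11 by limma) under PB, 5.59 to 7.55 over the settings tried, and 7.95 under vehicle. A DHS 11835 bp downstream of the TSS of the ribosomal protein gene Rps29, at chr12:69147073-69147629, had 663, 737, 598, 766 and 459 in B6C3F1. Its C57BL/6 counts were 18, 31.6, 17.2, 23.6 and 23.3. The lowest B6C3F1 count was again many times the highest of C57BL/6, with a log2 FC of 4.77 (SE 0.19, FDR 9.6e-15 by limma) under PB and 4.98 under vehicle.

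Around Cyp2a22, a cytochrome P450 gene more active in female than in male mouse liver, 10 consecutive DHSs over 86.4 kb (chr7:26876775-26963208) were open in B6C3F1 and at the lowest value, which stands for 0 or 1 reads, in all 9 C57BL/6 mice. Whether these bases were closed in the C57BL/6 mice or missing from their DNA was not tested. The run was listed through peaks in B6C3F1 alone, so its calls add no support. The DHS 47 bp upstream of the Cyp2a22 TSS had 448, 476, 401, 448 and 407 in B6C3F1 mice 1 to 5 under PB. In C57BL/6 the same DHS had 1.06, 0.597, 0.574, 0.982 and 1.30, each of which is the lowest value of that library. Every C57BL/6 mouse was at the floor and every B6C3F1 mouse was above 400, so the count was at least 161-fold higher in B6C3F1 than a floor of 3 reads per C57BL/6 library. Over the 10 DHSs the means in B6C3F1 ran from 76.7 to 449 under PB and from 74.5 to 437 under vehicle. These were at least 28.3- to 166-fold above the same floor under PB. The DHSs on both sides of the run were open in both strains.

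Cyp2a22 has close relatives, Cyp2a4, Cyp2a5 and Cyp2a12 among them, so reads assigned to any 1 of them are uncertain. The RNA of Cyp2a22 was 7.10, 12.7, 6.44, 7.95 and 4.75 CPM in B6C3F1 under PB, and 0.456, 0.467, 0.637, 0.429 and 0.540 in C57BL/6. It was higher in every B6C3F1 mouse, with a log2 FC of 3.64 (SE 0.24, FDR 5.1e-10 by limma) under PB and 3.71 under vehicle. Cyp2a5, which hydroxylates coumarin, was more abundant in the RNA than Cyp2a4 and Cyp2a22. Its log2 FC was -0.56 (FDR 0.0148) under PB, and that of Cyp2a4 was -0.64 (FDR 0.0252). Neither was called.

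**Figure D2:**
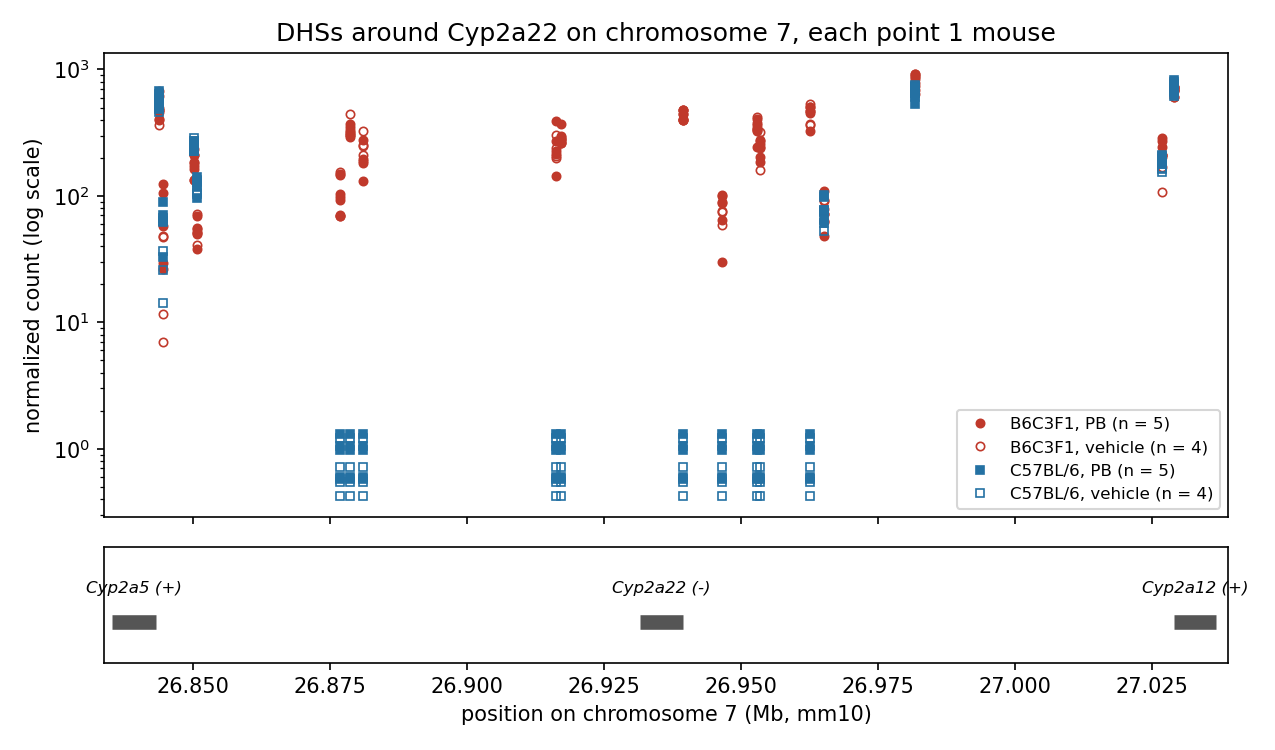
Normalized counts of DHSs around Cyp2a22 on chromosome 7 (mm10), 1 point per mouse, on a log scale. Bars show the genes with their strand. The C57BL/6 points below 2 stand for 0 or 1 reads, and their height is the scaling factor of each library.

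At the floor of 3 reads or fewer in every mouse of 1 strain under PB were 15 DHSs in C57BL/6 and 8 in B6C3F1. Each was listed through peaks in the other strain, so its call adds no support. All 15 were also at the floor in every C57BL/6 vehicle mouse, and 13 of them were at the lowest value in all 9 C57BL/6 mice. Besides the 10 around Cyp2a22, they included a DHS near Eapp (chr12:54738147-54738321, mean 119.9 in B6C3F1 under PB) and one near Mup10 (chr4:60584272-60584418, mean 87.5). Mup10 is 1 of many near-identical major urinary protein genes, so its reads are uncertain. The others, near Schip1, Gm17215 and Dclk3, were 97.7, 95.5 and 100% repeat sequence, where the placement of reads is uncertain. Repeats made up 10.9% of the DHS near Eapp and 0% of that near Mup10. Of the 8 DHSs at the floor in B6C3F1, 5 were also at the floor in its vehicle mice and 3 were at the lowest value in all 9 B6C3F1 mice.

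The 2 DHSs of this kind in introns of Skint6, a gene of the Skint immunoglobulin-like family of near-identical copies, are uncertain for that reason. The one at chr4:112941874-112942161 had counts of 1.47, 4.10, 1.59, 1.99 and 1.77 in B6C3F1 and 79.4, 140.3, 72.9, 105 and 123 in C57BL/6. All 5 B6C3F1 mice were at 3 reads or fewer, so the pseudocount sets the log2 FC, which was -5.57 to -3.20 over the settings tried. Those at the lowest value in all 9 B6C3F1 mice were DHSs near Gm8016 (chr13:68299378-68299524, mean 55.4 in C57BL/6 under PB), Mir6546 (chr1:171063978-171064101, mean 38.9) and 4933427I04Rik (chr4:123863282-123863452, mean 47.2). A DHS near Mir7094-1 (chr12:114008618-114008753) had means of 1.99 and 45.0. Repeats made up 95.2, 100 and 63.2% of the DHSs near Gm8016, 4933427I04Rik and Mir7094-1, so the placement of their reads is uncertain. The share was 23.4% near Mir6546.

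The lower DHS with the smallest FDR, chr6:128630935-128631935, 8501 bp upstream of Klrb1a, a gene of a natural killer cell receptor family, had 311, 301, 314, 281 and 377 in B6C3F1. In C57BL/6 it had 1119, 1189, 1088, 1245 and 1182. The groups were wide apart and each was tight, with a log2 FC of -1.88 (SE 0.10, FDR 1.4e-12 by limma) under PB and -2.14 under vehicle. A DHS 17547 bp upstream of Lrig1, a negative regulator of growth factor receptors, had means of 335 and 1045 (log2 FC -1.65, FDR 1.7e-11), with -1.74 under vehicle. DHSs near Kif18a (chr2:109462234-109462625, log2 FC -3.42, vehicle -4.05) and in an intron of Mtus1 (chr8:41103786-41104212, -2.10, vehicle -2.04) also had all 5 B6C3F1 mice below all 5 C57BL/6 mice. Kif18a encodes a mitotic kinesin, and Mtus1 a microtubule-associated protein.

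For Bmf, an upstream DHS and the RNA were both called lower in B6C3F1. A DHS 5052 bp upstream of Bmf, a proapoptotic member of the Bcl-2 family, had 16.2, 20.5, 11.1, 9.94 and 31.9 in B6C3F1 under PB. In C57BL/6 it had 286, 178, 308, 209 and 280.0. The highest B6C3F1 count was below the lowest C57BL/6 count, with a log2 FC of -3.83 (SE 0.26, FDR 7.8e-10 by limma) and -2.49 under vehicle. Bmf RNA averaged 2.36 CPM in B6C3F1 and 6.02 in C57BL/6, a log2 FC of -1.38 (FDR 0.00114). A DHS 3392 bp upstream of Rab6b, a small GTPase of Golgi traffic, had 30.9, 20.5, 19, 17.9 and 19.5 in B6C3F1 against 253, 210.1, 246, 217 and 165 in C57BL/6. All B6C3F1 mice were low, with a log2 FC of -3.29 under PB and -4.90 under vehicle. Rab6b RNA was 0.0377, 0.262, 0.180, 0.0345 and 0 CPM in B6C3F1 and 0.806, 1.55, 1.31, 1.21 and 0.914 in C57BL/6. Rab6b RNA passed the filter through C57BL/6 alone, so its call adds no support, and the pseudocount sets its log2 FC. Kif18a RNA was also lower, with -1.38 (FDR 0.00198), though its DHS lay 181691 bp from the TSS.

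Other DHSs with large lower log2 FCs were near Psg28 (chr7:18402832-18403315, means 5.44 and 142) and Cyp4a12a. The latter, 17627 bp upstream of Cyp4a12a, had 13.3, 8.21, 3.17, 25.8 and 33.6 in B6C3F1 and 327, 319.9, 333, 321 and 192 in C57BL/6. It was low in all B6C3F1 mice, with a log2 FC of -4.41 (SE 0.54, FDR 0.000447 by limma) and -4.09 under vehicle. Cyp4a12a encodes a male-biased fatty acid hydroxylase, and its RNA went the other way, from 193.7 CPM in C57BL/6 to 384 in B6C3F1, a log2 FC of 1.03 (FDR 0.000163). Cyp4a12b is a near copy of it, so these reads are uncertain.

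**Figure D3:**
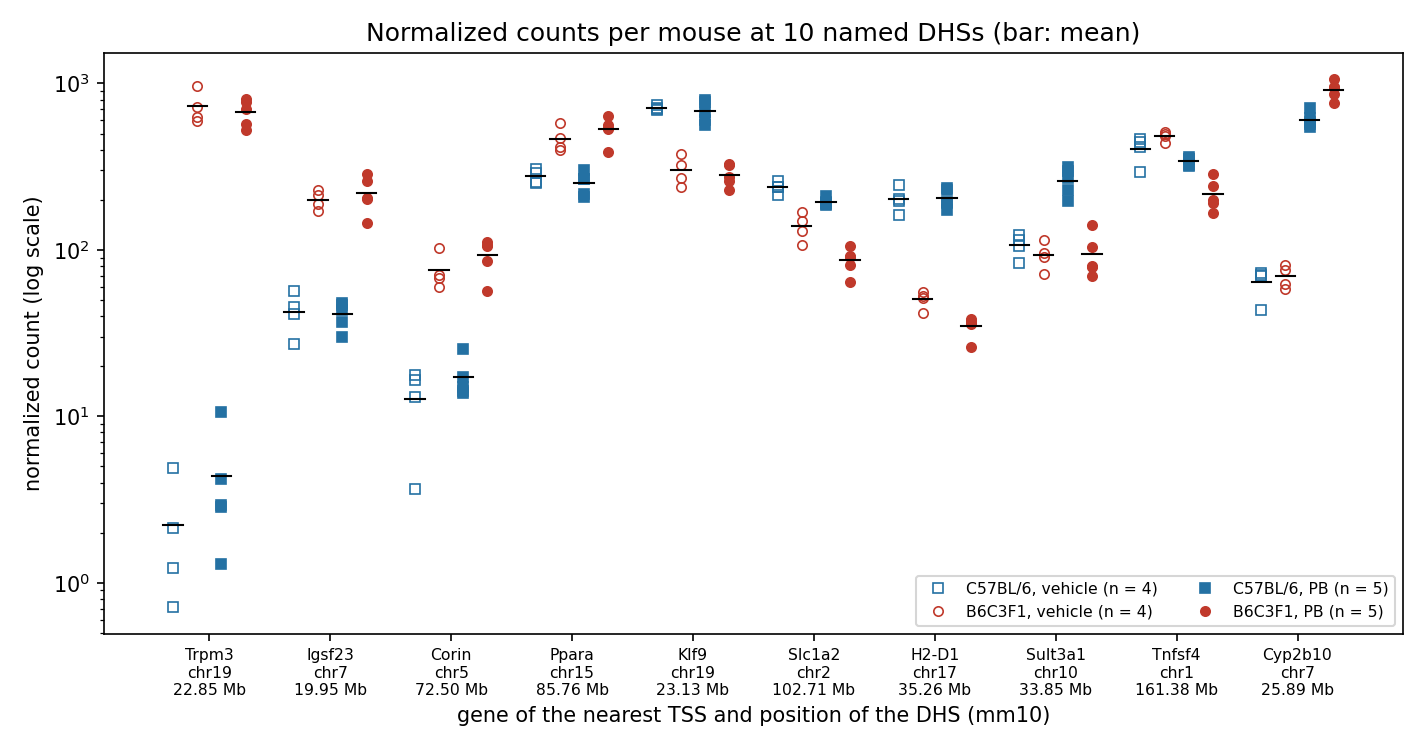
Normalized counts per mouse at 10 DHSs named in the text, on a log scale, by strain and treatment. The x axis gives the gene of the nearest TSS and the position (mm10), and bars mark means.

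At promoters, the direction of the DHS and that of the RNA mostly agreed. RNA was called by limma for 331 genes higher (2.39%) and 396 lower (2.86%) of 13838 tested under PB. Of 357 genes with RNA tested and a promoter DHS higher in B6C3F1, 41 had higher RNA and 1 had lower RNA (H2-DMa), and 74.5% had a positive RNA log2 FC, against 51.2% of the 11005 genes with any promoter DHS. Of 121 genes with a promoter DHS lower in B6C3F1, 37 had lower RNA and 2 had higher RNA (Cyp2c39 and Mup9), and 79.3% had a negative one. The median RNA log2 FC was 0.17 for the first group, -0.39 for the second and 0.01 over the 11005 genes with any promoter DHS. Most genes with a called promoter DHS thus had no called RNA difference.

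The gene with the largest fitted RNA log2 FC of these was Corin, near 0 CPM in C57BL/6, which encodes a protease that activates atrial natriuretic peptide. Its promoter DHS had 112, 105, 85.6, 106 and 56.7 in B6C3F1 and 13.8, 17.3, 14.9, 25.5 and 14.3 in C57BL/6 under PB. Corin RNA was 17.8, 18.2, 16.8, 17.9 and 14.9 CPM in B6C3F1 and 0.421, 0.395, 0.159, 0.234 and 0.291 in C57BL/6. Both readouts were high in every B6C3F1 mouse and low in every C57BL/6 mouse, with a log2 FC of 2.37 (FDR 4.9e-07 by limma) for the DHS under PB and 2.62 under vehicle. Corin RNA passed the filter through B6C3F1 alone, and the pseudocount sets its fitted log2 FC of 5.47.

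Tcf24, a basic helix-loop-helix gene, had a promoter DHS with 98.7, 105, 113, 110.3 and 113 in B6C3F1 and 40.2, 26.3, 24.1, 42.2 and 29.8 in C57BL/6. Every B6C3F1 mouse was higher, with a log2 FC of 1.73 for the DHS (FDR 2.2e-06) and 3.82 for the RNA (FDR 5.7e-07). Fgf21, a fasting hormone made by the liver, had a promoter DHS with 388, 352, 473, 472 and 269 in B6C3F1 and 138, 78.2, 64.9, 56.0 and 66.1 in C57BL/6. The groups did not overlap, with a log2 FC of 2.31 for the DHS (FDR 4.5e-07) and 1.76 under vehicle. Fgf21 RNA was 6.91, 5.10, 5.83, 5.32 and 1.84 CPM in B6C3F1 and 0.175, 0.431, 0.716, 0.663 and 0.457 in C57BL/6, with a log2 FC of 3.09 (FDR 1.6e-05). It was higher in all B6C3F1 mice, least in mouse 5. Igsf23, of the immunoglobulin superfamily, had 2.37 for the DHS and 2.86 for the RNA (FDR 4.8e-06).

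Some genes were lower in B6C3F1 in both readouts. Vnn1, a pantetheinase, had a promoter DHS with 73.7, 114, 50.7, 66.6 and 90.3 in B6C3F1 and 209.6, 248, 254, 179.7 and 172 in C57BL/6. All 5 B6C3F1 values were lower, with a log2 FC of -1.45 for the DHS (FDR 9.7e-06) and -2.17 for the RNA (FDR 0.00106). Nat8f5 had -1.45 for the DHS and -1.83 for the RNA, and Lgals1 (galectin 1) -0.78 and -1.74. The noncoding 1700030C10Rik had -2.49 for the DHS, and its RNA passed the filter through C57BL/6 alone.

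Of 336 DHSs whose nearest TSS was that of 1 of 37 CAR and PB targets, 11 were higher and 14 lower (7.44%, against 9.81% of all), with a median log2 FC of -0.02, as over all, and 18 of the 25 were also called under vehicle. In the RNA, Por and Ces2a were higher and Cyp3a13 was lower among 37 tested, against 2.39% higher and 2.86% lower of all genes tested. The DHS 78 bp upstream of the Cyp2b10 TSS had 1366, 1204, 1586, 1468 and 1461 in B6C3F1 and 1274, 1360.2, 1214, 1126 and 1149 in C57BL/6 under PB. The groups overlapped, and the log2 FC of 0.21 (FDR 0.0643) was not called. Cyp2b10 is a near copy of Cyp2b9 and Cyp2b13, so its values are uncertain.

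The DHS 5521 bp upstream of Cyp2b10 was called by a narrow margin. It had 955, 760.5, 1058, 955 and 861 in B6C3F1 and 544, 713, 573, 584 and 619.6 in C57BL/6 under PB. Every B6C3F1 mouse was above every C57BL/6 mouse, with a log2 FC of 0.59 (SE 0.10, FDR 0.000147 by limma). Under vehicle the means were 69.2 and 64.2, with a log2 FC of 0.12 (FDR 0.720), and the interaction had an unadjusted p of 0.0342 and an FDR of 0.907. The log2 FC stood at the threshold, and the call was lost in 7 of 22 other settings, with a log2 FC down to 0.54. Cyp2b10 RNA averaged 1519 and 1194 CPM under PB, a log2 FC of 0.35 (FDR 0.346). The DHS at the Cyp2c55 TSS had means of 388 and 338 and a log2 FC of 0.22 (FDR 0.261), and Cyp2c55 RNA had 0.55 (FDR 0.0424). Neither was called.

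Other DHSs of PB targets were lower in B6C3F1 in both treatments. The DHS 656 bp upstream of Gsta1, a glutathione transferase, had 261, 227, 259, 241 and 243 in B6C3F1 and 677, 829, 770.1, 575 and 736 in C57BL/6 under PB. The groups were far apart, with a log2 FC of -1.53 (SE 0.11, FDR 7.5e-10 by limma) and -1.83 under vehicle. Gsta1 RNA had -0.98 (FDR 0.0966), which was not called, and it is a near copy of Gsta2. A DHS in the pseudogene Cyp2c53-ps, 19970 bp upstream of Cyp2c29, had means of 138 and 335 under PB (log2 FC -1.28) and 33.4 and 145 under vehicle (-2.10). Its RNA neighbors belong to the near-identical Cyp2c genes and are uncertain.

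Male-biased liver genes had 13 DHSs higher and 13 lower of 206 (12.6%, median log2 FC 0.06). Female-biased genes had 9 higher and 10 lower of 162 (11.7%, median -0.11). Both shares stand against 9.81% of all autosomal DHSs. Under vehicle the medians were 0.07 for male-biased and 0.20 for female-biased genes, the latter of opposite sign. Most of the 9 higher DHSs of female-biased genes belonged to the run around Cyp2a22, at the floor in C57BL/6. Growth hormone pulses set both kinds of genes apart in male and female liver. Nudt7, a peroxisomal coenzyme A hydrolase, had a DHS 43532 bp upstream with 523, 338, 657, 405 and 565 in B6C3F1 and 179, 126, 129, 140.5 and 166 in C57BL/6. All B6C3F1 counts were higher, with a log2 FC of 1.72 (FDR 8.5e-08) and 1.43 under vehicle. A DHS 52732 bp upstream of Cyp7b1, an oxysterol hydroxylase, had means of 257 and 515 (-1.0, vehicle -0.55), and one 15394 bp upstream of Slco1a1, an organic anion carrier, had 1305 and 846 (0.62, vehicle 0.39), a call lost in 1 other setting. In the RNA, Cyp4a12a was higher and Mup1 and Cyp4a12b lower among 20 male-biased genes tested, and 2 of 18 female-biased genes were higher and 3 lower, against 2.39% higher and 2.86% lower of all genes tested.

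The DHS 6865 bp upstream of the female-biased sulfotransferase gene Sult3a1 differed under PB and hardly under vehicle. Under PB it had 79.6, 141, 79.3, 69.5 and 104 in B6C3F1 and 228, 313, 269, 196 and 297 in C57BL/6. Under vehicle it had 71.8, 91.3, 114 and 96.0 in B6C3F1 and 105, 115, 83.7 and 123 in C57BL/6. Only the C57BL/6 mice on PB stood apart, with a log2 FC of -1.48 (FDR 4.2e-06) under PB and -0.20 (FDR 0.482) under vehicle. The interaction had an unadjusted p of 7.2e-05 and an FDR of 0.711, which limma did not call. Sult3a1 RNA was 4.95, 9.63, 4.03, 4.01 and 4.18 CPM in B6C3F1 and 33.4, 20.8, 35.2, 7.64 and 25.0 in C57BL/6 under PB, with a log2 FC of -2.08 (FDR 0.000819). The RNA groups overlapped through C57BL/6 mouse 4 and B6C3F1 mouse 2, and under vehicle both means were below 0.1 CPM. A DHS 14568 bp upstream of Cyp2c39 had means of 124 and 294 under PB (log2 FC -1.25), while Cyp2c39 RNA was higher in B6C3F1 (2.25, FDR 0.000787), with near copies of the gene making both uncertain.

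The other DHSs named for a small interaction p had PB and vehicle log2 FCs of opposite sign or very different size. A DHS 16613 bp upstream of Tnfsf4, a costimulatory ligand of T cells, had 192, 243, 198, 284 and 166 in B6C3F1 and 351, 323, 361, 321 and 354 in C57BL/6 under PB. Under vehicle it had 436, 511, 498 and 481 in B6C3F1 and 442, 467, 294 and 415 in C57BL/6. The B6C3F1 mice were the lower group under PB only, with log2 FCs of -0.68 and 0.27 and an unadjusted interaction p of 4.1e-05 (FDR 0.674). An intron DHS of Ifi47, an interferon-induced GTPase, had means of 752 and 471 under PB (0.67) and 322 and 381 under vehicle (-0.25, p 8.2e-05). An intron DHS of Rbms3, which encodes an RNA-binding protein, had -1.64 and -0.17 (p 6.1e-05), and a DHS 1832348 bp from D030045P18Rik had -1.28 and 0.56 (p 5.3e-05). They were chosen for these p values out of the 3621 DHSs called only under PB with groups apart, and limma called 0 interactions. The PB call of Tnfsf4 and that of Ifi47 were lost in 2 other settings each, and that of D030045P18Rik in 1.

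Bile acid and lipid genes had 23 DHSs higher and 35 lower of 389 (14.9%, against 9.81% of all), with a median log2 FC of 0.01, and 20 of the 58 were also called under vehicle. The counts were 26 higher and 24 lower with adjustment for GC content, and 13 and 17 with thinned reads. The DHS at the TSS of Srebf1, a master regulator of fatty acid synthesis, had 868, 651, 657, 772 and 758 in B6C3F1 and 435, 382, 413, 389 and 408 in C57BL/6. All B6C3F1 mice were higher, with a log2 FC of 0.86 (FDR 1.3e-06) and 0.87 under vehicle, while Srebf1 RNA had 0.08 (FDR 0.793). An intron DHS of Ppara, the receptor that drives fatty acid oxidation, had 389, 535, 563, 538 and 637 against 216, 265, 209, 301 and 266, a log2 FC of 1.08 (FDR 3.8e-06), with an RNA log2 FC of 0.00. An intron DHS of Pparg, the adipogenic receptor, had 19.2, 28.7, 20.6, 20.9 and 17.7 against 79.4, 54.9, 92.5, 91.3 and 79.1. It was low in all B6C3F1 mice, with a log2 FC of -1.84 (FDR 5.8e-06), -1.09 under vehicle and -1.21 for the RNA (FDR 1.9e-05). Other genes of this list called in the RNA included Apoa1 and Apoa4, both higher, and Cd36, lower.

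Circadian clock genes had 8 DHSs higher and 8 lower of 180 (8.89%, against 9.81% of all, median log2 FC 0.06). The counts were 9 and 4 with quantile normalization, 10 and 6 with adjustment for GC content, and 4 and 6 with thinned reads. A DHS 5326 bp upstream of Per2, a repressor of the clock, had 246, 283, 292, 256 and 193 in B6C3F1 and 124, 103, 97.1, 139 and 172 in C57BL/6. The groups were apart, with a log2 FC of 1.01 (FDR 0.000128) and 0.79 under vehicle. Per2 RNA was 34.6, 30.6, 40.2, 52.7 and 34.3 CPM in B6C3F1 and 18.9, 19.1, 19.3, 16.7 and 15.0 in C57BL/6, with a log2 FC of 1.09 (FDR 0.000247) under PB and 0.37 under vehicle. Per2 was the 1 gene called in the RNA of 19 tested in this list, against 2.39% higher and 2.86% lower of all genes tested. DHSs of the clock genes Arntl and Bhlhe41 had -0.92 and -0.73, with -0.82 and -1.0 under vehicle.

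Genes of the pericentral zone, many of them Wnt targets, had 0 DHSs higher and 29 lower of 179 (16.2%, against 9.81% of all) under PB. Of all autosomal DHSs, 3.59% were higher and 6.23% lower. The 29 lay nearest 16 of the 22 genes, and 16 of the 29 were also called under vehicle. The median log2 FC was -0.29 under PB and -0.24 under vehicle, against -0.02 over all autosomal DHSs under PB. The 55 DHSs of stellate and fibroblast marker genes also had low medians, -0.35 under PB and -0.44 under vehicle. The part of these cells was not tested. With quantile normalization, median centring or adjustment for GC content the counts were 0 and 25, 0 and 29, and 0 and 26, and with thinned reads 0 and 19. The DHS 11049 bp downstream of the TSS of Glul, glutamine synthetase, had 308, 327, 355, 267 and 347 in B6C3F1 and 613, 599.8, 486, 838 and 764 in C57BL/6. All B6C3F1 mice were below all C57BL/6 mice, with a log2 FC of -1.02 (FDR 5.6e-06) and -0.64 under vehicle. Glul RNA had -0.55 (FDR 8.8e-05), short of the fold needed for a call.

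The DHS 1937 bp upstream of Oat, ornithine aminotransferase, had 57.5, 56.1, 96.7, 64.6 and 56.7 in B6C3F1 and 203, 206, 234, 121 and 189 in C57BL/6 under PB. It was lower in each B6C3F1 mouse, with a log2 FC of -1.51 (FDR 6.9e-06), -1.39 under vehicle and -0.77 for the RNA (FDR 0.000387). The promoter DHS of Slc1a2, a glutamate transporter, had 91.4, 80.7, 106, 90.4 and 63.7 in B6C3F1 and 188, 195, 211, 193 and 187 in C57BL/6. The groups were apart, with a log2 FC of -1.18 (FDR 1.3e-05), -0.79 under vehicle and -0.94 for the RNA (FDR 0.000216). Oat and Slc1a2 were the 2 genes called of 21 tested in the RNA, both lower, against 2.86% lower of all genes tested.

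Periportal genes had 6 DHSs higher and 3 lower of 118 (7.63%, against 9.81% of all). Their median log2 FC was 0.15 under PB and -0.01 under vehicle. In the RNA 0 of 14 genes were called, against 2.39% higher and 2.86% lower of all genes tested. An exon of Hmcn2 nearest to Ass1, argininosuccinate synthase, had a DHS with means of 123 and 53.6 (log2 FC 1.2, vehicle 1.39). A DHS 833156 bp from Cps1, the first enzyme of the urea cycle, had 49.9 and 125 (-1.32, vehicle -1.33), and one 15095 bp upstream of G6pc, glucose-6-phosphatase, had 113 and 198 (-0.84, vehicle -0.53), a call lost with thinned reads. At Ass1 and Cps1 the difference was near equal in the 2 treatments.

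Interferon and major histocompatibility genes had 2 DHSs higher and 22 lower of 170 (14.1%, against 9.81% of all), with a median log2 FC of -0.06. Of all autosomal DHSs, 3.59% were higher and 6.23% lower. The 24 lay nearest 16 of the 41 genes, and 17 of the 24 were also called under vehicle. The counts were 7 and 19 with adjustment for GC content, and 0 and 15 with thinned reads. In the RNA 0 were higher and 7 lower of 39 tested (Tap1, Ifit2, Ifit3, Gbp2, Gbp3, Gbp6 and Usp18), with a median of -0.41, against 2.39% higher and 2.86% lower of all genes tested. An intron DHS of the class I gene H2-D1 had 38.3, 26.0, 36.5, 35.8 and 37.2 in B6C3F1 and 228, 194, 234, 175 and 191 in C57BL/6. All B6C3F1 mice were low, with a log2 FC of -2.53 (SE 0.18, FDR 5.9e-10 by limma) and -1.97 under vehicle. H2-D1 RNA was somewhat higher in B6C3F1, with a log2 FC of 0.34 (FDR 0.00017), short of a call. The promoter DHSs of H2-Q6 and H2-Q7 had -0.98 and -1.16. The H2 genes are near copies of each other and vary among strains, so all of these values are uncertain.

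Liver transcription factor genes had 15 DHSs higher and 25 lower of 689 (5.81%, against 9.81% of all, median log2 FC -0.01), and Foxa3 was called higher in the RNA. The counts were 13 and 15 with adjustment for GC content, and 7 and 15 with thinned reads. The DHS 15217 bp upstream of Klf9, which encodes a zinc finger factor induced by glucocorticoids, had 229.9, 259, 328, 275 and 326 in B6C3F1 and 603, 676, 559.9, 796 and 769 in C57BL/6. Each B6C3F1 count was lower, with a log2 FC of -1.26 (FDR 1.0e-07) and -1.25 under vehicle. DHSs near Klf4 and Prox1, a factor of hepatocyte identity, had -2.06 and -0.71, with -1.88 and -0.69 under vehicle.

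Cell adhesion and growth genes had 4 DHSs higher and 21 lower of 301 (8.31%, against 9.81% of all, median log2 FC -0.07), with Src and Afp higher and Ddah1 lower in the RNA. An intron DHS of Ddah1, which degrades asymmetric dimethylarginine, had 85.5, 118, 82.5, 60.6 and 51.4 in B6C3F1 and 13.8, 16.1, 10.9, 27.5 and 15.6 in C57BL/6. It was higher in all B6C3F1 mice, with a log2 FC of 2.19 (FDR 6.6e-06), while Ddah1 RNA had -0.88 (FDR 0.000777). DHSs near the cyclin gene Ccnd1 and in an intron of N-cadherin (Cdh2) had -0.95 and -1.15, with -1.23 and -0.83 under vehicle.

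Apart from hepatocyte and endothelial genes, marker genes of the liver cell types had few DHSs, so their shares rest on small counts. All shares stand against 9.81% of all autosomal DHSs. Liver endothelial genes had 1 DHS higher and 4 lower of 125 (4.0%), Kupffer and macrophage genes 0 and 1 of 19 (5.26%), stellate and fibroblast genes 0 and 5 of 55 (9.09%), and biliary genes 3 and 1 of 31 (12.9%). Lymphocyte genes had 2 and 0 of 14 (14.3%), neutrophil genes 0 and 0 of 7, erythroid genes 0 and 1 of 5 (20%), and hepatocyte genes 7 and 3 of 141 (7.09%). In the RNA 1 of 10 hepatocyte markers was called (Apoa1, higher), and 0 of 13 endothelial and 0 of 11 Kupffer and macrophage markers were. Of all genes tested in the RNA, 2.39% were called higher and 2.86% lower.

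The summed RNA of Kupffer and macrophage markers, with Clec4f the most abundant, was 261, 246, 259, 304 and 284 CPM in B6C3F1 and 289, 349.5, 343, 503 and 279.8 in C57BL/6 under PB. The groups overlapped at the low end of C57BL/6. The sum of 6 lymphocyte markers, with Ptprc the most abundant, was 15.9, 14.6, 16.6, 18.5 and 18.5 CPM in B6C3F1 and 21.4, 19.6, 22.0, 36.1 and 21.5 in C57BL/6. These were low in every B6C3F1 mouse, and Cd3e, Cd3d, Cd8a, Cd79a, Nkg7 and Gzma were not in the table. The sum of liver endothelial markers, led by Stab2, averaged 617 and 682 CPM. The sum of the erythroid markers in the table, led by Alas2, went the other way, at 207 and 164 CPM. Summed DHS counts of the lymphocyte genes averaged 2689.9 in B6C3F1 and 2503 in C57BL/6, those of the Kupffer and macrophage genes 1279 and 1189.7, and those of the erythroid genes 149 and 196. In these 3 lists, and for biliary genes, the DHS sums and the RNA sums differed in opposite directions. For hepatocyte, endothelial, stellate and neutrophil genes they differed in the same direction. The Kupffer and macrophage DHS sums differed by less than their SDs (140 and 215), and averaged 1265 and 1277 under vehicle. Those of stellate and fibroblast genes averaged 5592 in B6C3F1 and 6321 in C57BL/6 under PB. The part of these cells in the strain differences was not tested.

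Promoters held fewer of the differences than distal sites. Of 13501 promoter DHSs 614 (4.55%) were called under PB, against 4431 of 46701 intragenic (9.49%) and 4402 of 36085 intergenic DHSs (12.2%). Promoter DHSs were more often higher in B6C3F1 (420) than lower (194), while intragenic and intergenic DHSs were more often lower. With adjustment of each mouse for GC content, an alternative added after the data were seen, promoters had 253 higher and 249 lower.

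The differences lay on every autosome, in 7.65% of the DHSs of chromosome 10 to 11.4% of those of chromosome 4. On the X chromosome, which male B6C3F1 mice take from the C57BL/6 mother, 94 of 1855 DHSs (5.07%) were called. The X share was below the autosomal share in each quintile of DHSs by level, with 4.97% against 9.04% in the lowest and 1.33% against 3.75% in the highest. In 454 windows of 5 Mb with at least 50 DHSs, the median share called was 9.31%. It correlated with the share called under vehicle at Pearson r 0.771 over the windows.

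The windows with the highest shares were chr14 at 85 to 90 Mb (24 of 70 DHSs), chr13 at 65 to 70 Mb (41 of 131) and chr11 at 25 to 30 Mb (28 of 91). The lowest share was 0 of 69, on chr1 at 140 to 145 Mb. The 15 windows with at least 2 times the share of all autosomal DHSs held 472 called DHSs, 5.00% of all called, in 2.06% of the DHSs. So most called DHSs lay outside such windows.

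Some called DHSs stood in runs. There were 45 runs of at least 5 consecutive DHSs called in the same direction, 18 higher and 27 lower, with 268 DHSs in all, of which 187 (69.8%) were called under vehicle. The longest held 12 lower DHSs at chr13:68167919-68344392, around Gm8016 and Urml, of which 6 were called under vehicle. The run around Cyp2a22 was next, and 8 lower DHSs stood at chr8:116500045-116540538 near Dynlrb2. Runs of 7 included higher DHSs at chr13:103558949-103644663 near Gm30551, with a median log2 FC of 3.38, and at chr17:30575902-30612924 around Btbd9 and Glo1. The 7 lower DHSs at chr4:112941874-113067892, in the Skint genes, were all called under vehicle.

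The lower calls were more frequent at sites poor in GC. From the lowest to the highest quintile of GC content, the share lower in B6C3F1 under PB went 8.27, 7.92, 6.85, 5.72 and 2.36%, and the share higher went 2.98, 2.76, 3.39, 3.95 and 4.85%. With adjustment for GC content the share lower was 5.71% in the lowest and 3.32% in the highest quintile, and the share higher 4.76% and 2.42%, so the rise of the higher share with GC did not hold. By level, the share called was 9.04, 10.9, 13.6, 11.8 and 3.75% from the lowest to the highest quintile. The share of the called DHSs that were also called under vehicle rose with the level from 29.9% to 64.3%. The parts of GC content and depth in the differences were not tested.

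**Figure D4:**
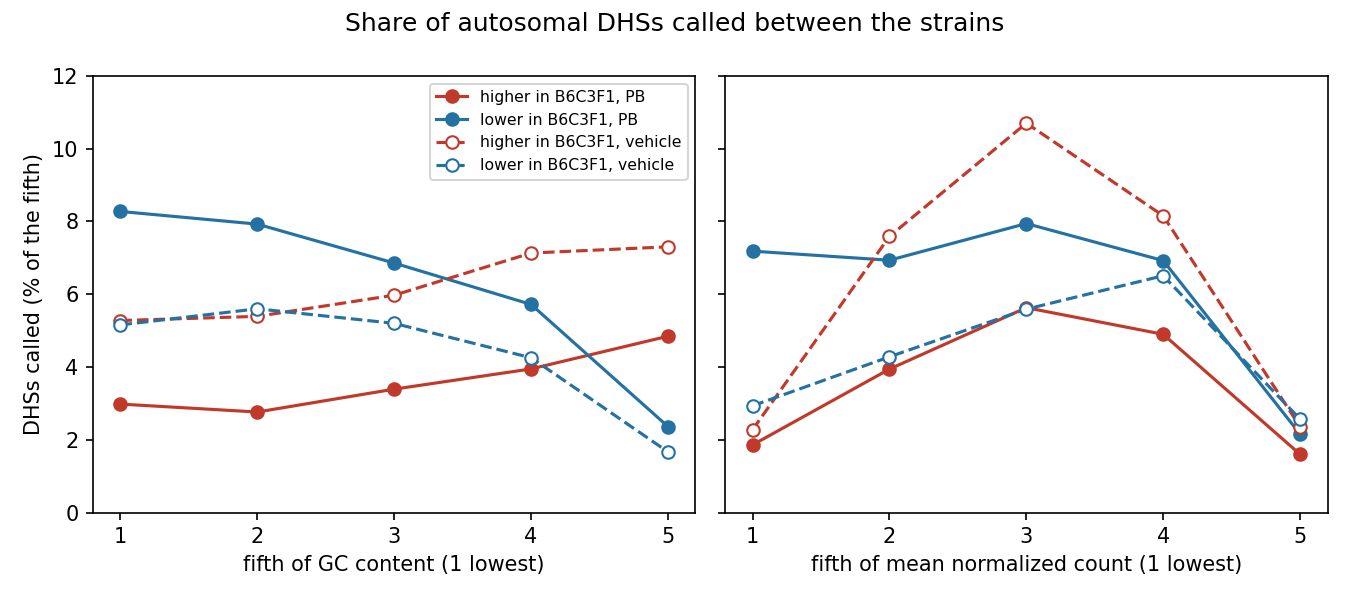
Share of autosomal DHSs called by limma as higher or lower in B6C3F1, by quintile of GC content (left) and of mean normalized count (right). Solid lines are the PB comparison and dashed lines the vehicle comparison.

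Letters known to be bound by liver factors were searched on both strands in the central 201 bp of each DHS. The C/EBP letters TTGCNNAA were in 14.6% of all autosomal DHSs, in 10.5% of those higher and in 21.4% of those lower in B6C3F1 under PB. Under vehicle the shares were 9.33% and 20.3%, and with adjustment for GC content under PB 11.9% and 20.2%. HNF4 letters (CAAAGTCCA) were in 1.59% of all, 1.01% of the higher and 2.29% of the lower DHSs, and FOXA letters (TGTTTAC) in 5.67, 3.94 and 7.04%. STAT5 letters (TTCNNNGAA) were in 7.45, 5.01% and 7.36%, AP-1 letters (TGANTCA) in 7.65, 6.46 and 7.89%, and E-box letters (CACGTG) in 4.97, 5.27 and 4.90%. With adjustment for GC content the E-box order turned, to 4.70% of the higher and 5.55% of the lower DHSs, as under vehicle (3.68% and 5.63%). The STAT5 shares under vehicle were near equal, at 6.10% and 5.89%. The GC box (GGGCGG) was in 12.0% of all, 13.2% of the higher and 4.60% of the lower DHSs, but in 7.09% and 6.72% with adjustment for GC content, and ETS letters (CCGGAAG) were in 3.07, 1.77 and 1.45%. The ETS order also turned with that adjustment, to 1.04% and 1.70%.

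The central 201 bases of 5 named DHSs are printed to show the reference letters at sites that differed between the strains, chosen after the values were seen because each held a searched motif. They were read from GRCm38 (mm10), plus strand, with motif matches in capitals. They are chr7:26952854-26953054 (C/EBP and AP-1, in the Cyp2a22 run), chr1:67956083-67956283 (overlapping HNF4 and C/EBP letters, and AP-1, nearest Cps1) and chr19:23125909-23126109 (C/EBP, near Klf9). The others are chr2:102706175-102706375 (C/EBP, promoter of Slc1a2) and chr1:91464554-91464754 (FOXA, near Per2). The reference is the C57BL/6 genome, so no C3H letters are shown, and a match is a description of the letters and not a site.
Cyp2a22: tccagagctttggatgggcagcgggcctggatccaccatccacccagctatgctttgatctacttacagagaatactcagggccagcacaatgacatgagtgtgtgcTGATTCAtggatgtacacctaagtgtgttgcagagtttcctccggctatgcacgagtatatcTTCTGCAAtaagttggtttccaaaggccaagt
Cps1: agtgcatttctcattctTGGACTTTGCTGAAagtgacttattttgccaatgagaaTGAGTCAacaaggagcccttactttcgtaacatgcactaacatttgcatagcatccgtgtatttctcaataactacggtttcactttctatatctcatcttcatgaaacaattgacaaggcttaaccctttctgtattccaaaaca
Klf9: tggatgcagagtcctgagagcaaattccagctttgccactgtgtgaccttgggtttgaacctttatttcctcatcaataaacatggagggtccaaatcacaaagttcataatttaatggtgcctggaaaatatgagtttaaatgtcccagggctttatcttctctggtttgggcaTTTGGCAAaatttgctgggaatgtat
Slc1a2: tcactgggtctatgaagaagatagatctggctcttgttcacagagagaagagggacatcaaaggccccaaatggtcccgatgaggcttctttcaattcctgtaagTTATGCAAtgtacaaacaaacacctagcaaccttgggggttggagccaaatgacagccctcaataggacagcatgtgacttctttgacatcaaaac
Per2: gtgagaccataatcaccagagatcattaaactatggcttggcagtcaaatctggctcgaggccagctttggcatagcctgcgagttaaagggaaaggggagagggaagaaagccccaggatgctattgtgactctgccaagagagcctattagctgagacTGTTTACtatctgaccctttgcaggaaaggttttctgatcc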

How the data were processed

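DNase-seq and RNA-seq of mouse liver were measured in 18 mice each. Per the processing notes of the submitters, DNase reads were aligned to mm10 with Bowtie2 2.1.0 and peaks called with MACS2 2.1.1.20160309, and RNA was aligned with STAR 2.4.0f1. The authors deposited the DNase table as signal, which is normalized counts from DiffBind 1.16.3, and its other column holds DHS widths. The deposited RNA values are normalized CPM, which were used as they are.

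Reads were recovered from the deposited DNase values by dividing those of a mouse by its lowest value, which stands for 0 or 1 reads, and 100% came out whole within 0.001. Reads in DHSs per mouse were 14.5 to 25.7 M in B6C3F1 and 19.4 to 44.6 M in C57BL/6 under PB, and 7.01 to 24.4 and 21.4 to 58.1 M under vehicle. Mice are named by the last digit of their number.

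Limma 3.58.1 (R 4.3.3, trend, robust) was fitted to log2(normalized count + 1), for PB and vehicle apart, with FDR over all 98170 DHSs. Calls need a log2 FC of 0.58 in size and an FDR of 0.01. RNA was fitted on log2(CPM + 0.1) for genes at 0.4 CPM or more in 3 samples of a group. Whole reads were also tested with edgeR 4.0.16 and DESeq2 1.42.0. RefSeq gave genes and TSSs; a promoter DHS lies within 1000 bp upstream of a TSS or overlaps it, and a DHS belongs to its nearest TSS. Python 3.11.15, pandas 2.3.3 and pysam 0.24.0 did the rest. The fit was tested on simulated data.

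Named DHSs were, among those called under PB with groups apart, the 8 of largest log2 FC and the 5 of smallest FDR per direction, the 5 of smallest interaction p called only under PB, the called DHS of smallest FDR of up to 3 genes in each of 10 gene lists, the promoters of the 5 genes per direction with the largest called RNA difference, and 4 DHSs of Cyp2b10 and Cyp2c55. Further DHSs, windows, runs and genes were named after their values were seen. There were also 8 marker lists. Members and lists were chosen with earlier results of these data known.

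Alternatives were other pseudocounts, a filter, scalings, tools, thinning, weights, thresholds, a replicate block and each mouse left out, and, added after the data were seen, adjustment for GC content.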

Additional observations from a re-analysis of the deposited data

Results flagged for a closer look

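A value was listed here when it stood apart from the other mice of its own group by a test of gaps (Dixon). Of 249 groups tested 19 were listed (7.63%), and chance alone lists about 1 in 20.

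In B6C3F1 vehicle mouse 3, the shallowest library, 1146 DHSs were at the lowest value, more than in the other mice of its group.

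In B6C3F1 PB mouse 2, values stood apart at Prox1 (1265), Lgals1 (86.2), H2-D1 (26.0), H2-Q6 (294), Pparg (28.7) and the Cyp2a22 DHS at chr7:26917074-26917464 (369). Other B6C3F1 PB values were Klf4 in mouse 4 (64.6), Oat in mouse 3 (96.7) and Rab6b in mouse 1 (30.9).

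Among C57BL/6 PB mice the values were Prox1 in mouse 2 (1867), the DHS near Cyp4a12a in mouse 5 (192), and Lrig1 (1119.9) and Fgf21 (138) in mouse 1. Under vehicle they were D030045P18Rik in B6C3F1 mouse 5 (39.2), Ccnd1 in B6C3F1 mouse 2 (132), the DHS upstream of Cyp2b10 in C57BL/6 mouse 2 (43.4), and Oat (158) and Nudt7 (149) in C57BL/6 mouse 3.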

How the results depend on the processing

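Leaving out each mouse in turn gave 6316 to 10490 DHSs called under PB, 4955 to 12425 under vehicle, 3113 to 5655 in both, and r from 0.759 to 0.812. Without C57BL/6 vehicle mouse 1 or mouse 2, the vehicle count was 5092 or 4955 and the shared count 3153 or 3113. Thinned reads gave 5731 under PB, 5884 under vehicle, 2695 in both and r 0.725. An FDR of 0.05 gave 15112, 18075 and 8974, of which 2 were called in opposite directions, and a log2 FC of at least 1 gave 4244, 4302 and 1995, which was 47.0% of the PB list. Without B6C3F1 vehicle mouse 3, 6398 were higher and 6027 lower under vehicle.

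Under PB, edgeR called 10206 DHSs and DESeq2 12025, and under vehicle 12900 and 14356. Adjustment for GC content gave 8842 under PB, 10032 under vehicle and 4711 in both. Of 66 named DHSs, 59 kept their side of the call in every setting, and in 1437 of 1452 settings the call was the same. In the other 15 it was weaker and in 0 reversed.

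With the last digit of the mouse number as a replicate block, 7901 DHSs were called under PB, 7094 under vehicle and 3640 in both, which was 46.1% of the PB list. The digits were not shown to be paired: the correlation of mice with the same digit was -0.10, 0.21, -0.19, 0.07 and -0.17 under PB and -0.15, -0.04, -0.10 and -0.21 under vehicle. Strain cannot be told apart from age, supplier and study.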
